A study of Mus musculus with 4 samples.

Results

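Heat shock proteins and chaperonins are the machines that fold newly made proteins and rescue damaged ones, and their genes were followed here in mouse endothelial cells given lipopolysaccharide (LPS). A gene was taken when its only symbol in the probe annotation began with Hspa, Hspb, Hspd, Hspe, Hsph or Hsp90, with Dnaja, Dnajb or Dnajc and a digit, or with Cct and a digit from 2 to 8, or was Cryab. This gave 66 genes of 11138, measured on 148 of 32448 spots. They comprise 13 HSP70 genes (the HSP110 relatives included), 2 HSP90 genes, Hspd1 and Hspe1, 7 small heat shock protein genes, 32 DNAJ genes and 8 subunits of the chaperonin CCT. The remaining 2, Hspbp1 and Hspb11, carry the name without being chaperones of these families: Hspbp1 is an exchange factor of HSP70, and Hspb11 is the intraflagellar transport protein IFT25.

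The cells were SVEC, an established mouse endothelial line, cultured without LPS or with it for 4 h or 24 h, with the dose stated as 50 ng/ml on 3 of the 4 arrays. Each time point had 2 two-colour arrays comparing treated with control RNA, which had been amplified, and the second array exchanged the dyes. Both arrays of a time were therefore taken as 1 RNA pair, so each time is 1 replicate and carries no test. An SD below is the spread between those arrays, which is technical. The labels name no clone, passage or number of cultures.

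HSP70 proteins hold and release unfolded stretches of other proteins in a cycle driven by ATP. DNAJ proteins, also called HSP40, deliver the substrates and start that cycle through their J domain. HSP90 finishes the folding of kinases and receptors, small heat shock proteins hold unfolded proteins without ATP, and CCT is a double ring that folds actin and tubulin. Hspd1 and Hspe1 are HSP60 and HSP10, which form the folding chamber of mitochondria. The heat-inducible genes among them are controlled by heat shock factors, which bind repeated heat shock elements, while genes of endoplasmic reticulum (ER) chaperones respond to the unfolded protein response.

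All values below are log2 ratios of LPS-treated over control cells, relative to the median spot of the array, so that 1 is 2-fold higher. The direction is likely, not stated: it assumes that the deposited ratio is Cy5 over Cy3. If it were Cy3 over Cy5, higher and lower would exchange places throughout. A gene is called higher or lower when the mean of its arrays was at least 2-fold and each array at least 1.5-fold the same way. In a whole culture, a lower ratio from fewer cells expressing a gene and from less RNA per cell cannot be told apart. Ratios give no levels, so the presence of endothelial markers could not be checked; of 14 measured, 0 were higher and 1, Cdh5, was lower at 4 h.

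At 4 h, 12 of the 66 genes were higher and 3 lower. That is 18.2% higher, where 8.74% of all genes were, and 4.55% lower, where 5.77% of all genes were. The higher genes were Cct8, Hspa8, Dnaja1, Hspd1, Cct3, Hspa14, Dnajc19, Cryab, Cct5, Hspb7, Cct6a and Cct7, and the lower ones Dnajc8, Dnajb12 and Hspa13. At 24 h, 1 gene, Hspd1, was higher and 0 were lower, a share of 1.52% for the higher gene, beside 1.68% and 0.799% of all genes (2.48% in either direction, against 14.5% at 4 h). By this rule only the share of higher genes at 4 h stood above its background.

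These calls are relative to the array's median spot, and that choice decides them at 4 h. A list of 31 abundant transcripts outside the chaperones had a median of 1.99 at 4 h, with 20 higher and 1 lower, while 26 transcripts of unrelated tissues had a median of -0.28, with 1 higher and 2 lower. With these abundant transcripts as the zero of each array, the mean ratio of every gene moved by -1.93 at 4 h and by -0.12 at 24 h. On that scale 0 of the 66 genes were higher at 4 h and 47 were lower, beside 104 and 9218 of all genes. The part of transcript abundance in the 4 h values was not tested, since the table used holds no intensities. At 24 h the abundant list had a median of 0.11, and Hspd1 was the 1 higher gene on both scales.

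**Figure D1:**
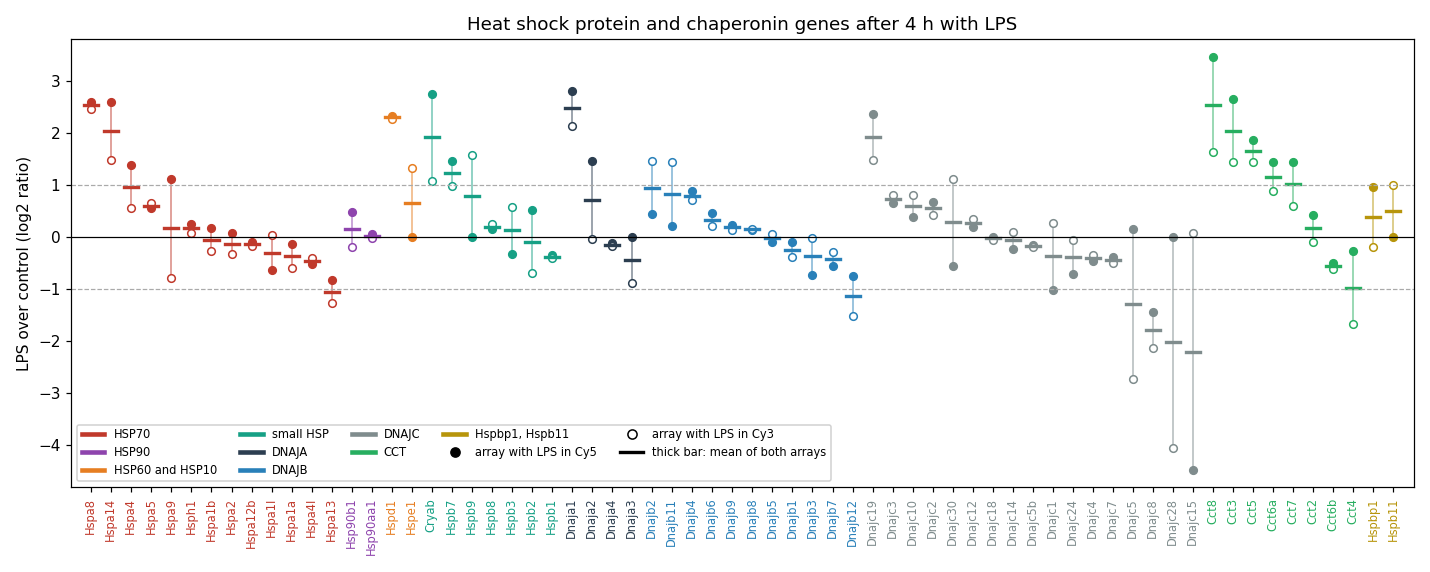
LPS over control (log2 ratio, vertical axis) at 4 h for each of the 66 genes, coloured by family. Filled circles are the array with LPS in Cy5, open circles the array with LPS in Cy3, thick bars their mean and dashed lines 2-fold. Cct8, Hspa8, Dnaja1 and Hspd1 stand highest at means of 2.53, 2.53, 2.47 and 2.30, while Dnajc15, Dnajc28 and Dnajc5 owe their low means to 1 array each. With centring on abundant transcripts all means lie 1.93 lower and Cct5, Cct6a, Cct7, Cryab, Dnajc19 and Hspb7 fall below 0.

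CCT had the largest share of higher genes at 4 h: 5 of its 8 subunits were higher and 0 lower, with a median of 1.08 where the median of all genes was 0.00. By array the CCT median was 1.43 with LPS in Cy5 and 0.74 with LPS in Cy3. Centred on abundant transcripts, the same median was -0.85. Cct8, the theta subunit, lay at 3.44 and 1.63, a mean of 2.53 ± 1.29 (SD, 2 arrays) or 5.79-fold. Cct3, the gamma subunit, lay at 2.64 and 1.44 (mean 2.04 ± 0.85), and Cct5, the epsilon subunit, at 1.85 and 1.44 (mean 1.65 ± 0.29). The array with LPS in Cy5 gave the larger value for each of these.

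Cct6a, the zeta subunit, was at 1.43 and 0.87 (mean 1.15 ± 0.40), and Cct7, the eta subunit, at 1.43 and 0.60 (mean 1.02 ± 0.59). Both stand close to the 2-fold limit, and without the array with LPS in Cy5 neither passed it, nor did Hspb7, described below. Cct2, the beta subunit, lay at 0.43 and -0.09, and Cct4, the delta subunit, at -0.27 and -1.68 (mean -0.97 ± 1.0), so the subunits of 1 ring did not share a direction. Cct6b is a form of the zeta subunit known from testis, and it lay at -0.49 and -0.61, below Cct6a on both arrays. Tcp1, the alpha subunit, is outside the naming pattern and is given here for completeness: it lay at 0.45 and 0.64.

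At 24 h no CCT subunit was called. Their means ran from -0.30 for Cct6b to 0.61 for Cct3, with a median of 0.15, and 0.03 with centring on abundant transcripts. Cct3 (0.81 and 0.40), Cct8 (0.30 and 0.41), Cct5 (0.33 and 0.24) and Cct7 (0.20 and 0.17) were above 0 on both arrays. Cct6a, at -0.29 and -0.25, was below 0 on both, as was Cct4 at -0.05 and -0.26. Cct2 was near 0, at 0.01 and 0.23.

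The mitochondrial chaperonin was the only part of the system past the rule at both times. Hspd1 lay at 2.33 and 2.27 at 4 h (mean 2.30 ± 0.04, 4.91-fold) and at 1.24 and 1.26 at 24 h (mean 1.25 ± 0.01, 2.38-fold). All 4 of its spot values at each time were above 0, and its arrays differed by less than 0.1 at either time. Its spots lay further apart: at 4 h they were at 3.13 and 1.52 with LPS in Cy5 and at 2.78 and 1.75 with LPS in Cy3. Of all genes, 0.413% were higher at both times. Its co-chaperonin Hspe1 had 1.32 on the 4 h array with LPS in Cy3, whereas both of its spots on the other array were at a ratio of exactly 1, which may mean not measured. At 24 h Hspe1 lay at 0.70 and 0.58 (mean 0.64 ± 0.08, 1.56-fold), short of 2-fold on both arrays. Its 24 h spots lay further apart, at 0.21 and 1.19 with LPS in Cy5 and at 0.82 and 0.34 with LPS in Cy3.

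Hspd1 and Hspe1 are neighbours in the RefSeq gene table and read from opposite strands of a shared promoter. The stretch is shown because it holds a heat shock element, found before few of the 53 members with a RefSeq promoter entry (GRCm38.p6). The element searched was 3 units in alternating order, GAA, TTC and GAA, each 2 bases from the next, on both strands and in the 250 bases before each gene's start. Capitals mark the matches, and in this stretch 2 of them overlap, 1 on each strand. The first line reads along Hspd1 (minus strand) and the second along Hspe1 (plus strand), both at chr1:55088039-55088096; they are the same bases. The third is Dnajb6, at chr5:29735832-29735884 (plus strand).
Hspd1: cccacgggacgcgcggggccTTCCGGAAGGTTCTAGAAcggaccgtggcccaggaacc
Hspe1: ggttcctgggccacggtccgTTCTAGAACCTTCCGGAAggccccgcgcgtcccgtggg
Dnajb6: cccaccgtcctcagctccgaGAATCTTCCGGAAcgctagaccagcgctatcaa

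The element was found before 3 of the 53 members, Hspd1, Hspe1 and Dnajb6. It stood before 0.514% of all 27025 genes searched, and in 0.466% of their 32851 promoters. Dnajb6 is a DNAJ protein that keeps aggregation-prone proteins soluble. It lay at 0.46 and 0.20 at 4 h, where its 2 oligonucleotides differed in sign (-0.41 and 1.07), and at 0.85 and 0.87 at 24 h (mean 0.86 ± 0.01), where they did not (0.83 and 0.88). All 8 of its spot values at 24 h were above 0. At 24 h these 3 genes were thus between 0.58 and 1.26 on every array. Together with Dnajc10, an ER protein that reduces disulfide bonds (0.94 and 0.54), they were the 4 members at or above 0.5 on both 24 h arrays. That is 6.06% of members beside 4.35% of all genes. The limit of 0.5 is not one of the rules above, by which neither Hspe1 nor Dnajb6 was called. Hspd1 and Hspe1 share the same bases, so their matches are not separate. Any part of the element in these values was not tested. The match is a description of letters, not of binding.

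The shorter motif GAANNTTC, which the longer one contains, stood before 10 of the 53 members and before 7.73% of all genes searched. Beside the 3 genes above these were Cct2, Dnaja1, Dnaja4, Hspa1a, Hspa1b, Hspb1 and Hspb3, and of these 7 only Dnaja1 was higher at 4 h. The order TTCNNGAA, also within the longer element, stood before 7 of the 53 members and before 8.11% of all genes searched. Beside the same 3 genes these were Cct5, which was higher at 4 h, and Dnajb4, Dnajc10 and Hsph1, which were not. Hspb1, the small heat shock protein HSP27, lay at -0.35 and -0.40 at 4 h and at 0.21 and 0.15 at 24 h. Dnajb1, the main inducible HSP40, lay at -0.10 and -0.39 at 4 h and at -2.24 and -0.08 at 24 h, so its 24 h mean of -1.16 ± 1.53 rests on the array with LPS in Cy5.

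**Figure D2:**
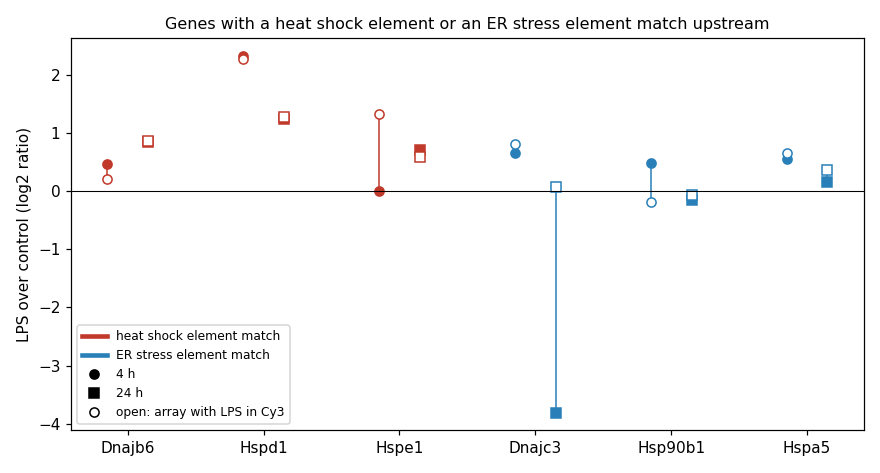
LPS over control (log2 ratio, vertical axis) for the genes with a heat shock element match (red) or an ER stress element match (blue) upstream; circles are 4 h, squares 24 h, filled symbols LPS in Cy5 and open symbols LPS in Cy3. At 24 h the red genes lie between 0.58 and 1.26 on all arrays, and 1 Dnajc3 array lies at -3.81.

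Among the HSP70 genes, 2 of 13 were higher at 4 h and 1 lower, with a median of -0.05. Hspa8, the constitutive cytosolic HSC70, lay at 2.59 and 2.46, a mean of 2.53 ± 0.10 or 5.76-fold. Hspa14, an HSP70 relative that works at the ribosome, lay at 2.59 and 1.47 (mean 2.03 ± 0.79, 4.09-fold). Both stayed above 0 with centring on abundant transcripts, where the HSP70 median was -1.98. Hspa13, a microsomal HSP70 relative, was lower at -0.83 and -1.26 (mean -1.05 ± 0.30).

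The inducible HSP70 genes stood apart from Hspa8. Hspa1a lay at -0.14 and -0.59 at 4 h and at -0.41 and -1.10 at 24 h, and all 8 of its spot values over both times were below 0. Hspa1b lay at 0.17 and -0.27 at 4 h and at 0.34 and 0.07 at 24 h. On the 4 h array with LPS in Cy5 its spots differed in sign, at 0.93, 0.79, -0.49 and -0.57. The sequences of Hspa1a and Hspa1b are nearly identical, so signal of one may reach the spots of the other. Both are neighbours with Hspa1l in the gene table. Hspa1l, known from testis, had means of -0.30 at 4 h and 0.26 at 24 h.

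Hspa4, an HSP110 relative that swaps the nucleotide of HSP70, lay at 1.38 and 0.55 at 4 h (mean 0.97), just short of the rule. Hsph1, HSP110 itself, was near 0 at 0.24 and 0.08, and Hspa4l lay at -0.52 and -0.40. The mitochondrial HSP70 gene Hspa9 gave opposite signs at 4 h, 1.11 and -0.78. Hspa2 and Hspa12b had 4 h means of -0.13 and -0.14. At 24 h no HSP70 gene was called, and the means ran from -0.78 for Hspa2 to 0.43 for Hspa8 with a median of 0.15. Hspa8 was then at 0.70 and 0.16. Hspa2 was below 0 on both arrays, at -0.95 and -0.60.

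Of the HSP90 genes, Hsp90aa1 (cytosolic HSP90 alpha) lay at 0.06 and -0.03 at 4 h and at -0.77 and -0.12 at 24 h. Hsp90b1 (the ER form, GRP94) lay at 0.49 and -0.19 at 4 h and at -0.16 and -0.07 at 24 h. Neither was called at either time, and Hsp90ab1 was not analysed here. Their median was 0.08 at 4 h and -0.28 at 24 h.

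Small heat shock proteins gave 2 of 7 higher genes at 4 h and 0 lower, with a median of 0.20, or -1.74 when centred on abundant transcripts. Cryab, alpha B-crystallin, lay at 2.75 and 1.08 (mean 1.91 ± 1.18, 3.77-fold). Hspb7, known from heart and muscle, lay at 1.46 and 0.98 (mean 1.22 ± 0.35). With centring on abundant transcripts Cryab lay at -0.02 and Hspb7 at -0.71. Hspb2 is the neighbour of Cryab in the gene table, and it gave opposite signs, 0.52 and -0.70. Hspb9, a testis form, lay at 1.56 with LPS in Cy3, and both its spots had a ratio of exactly 1 on the other array. Hspb8, a partner of the co-chaperone Bag3, lay at 0.15 and 0.24.

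At 24 h no small heat shock gene was called. Cryab lay at 0.35 on both arrays and Hspb7 at -0.74 and -0.23. Hspb3 had the highest mean, 1.31 ± 1.59, from arrays at 0.18 and 2.43, and on the second its adjacent spots of the same oligonucleotide lay at 5.23 and -0.37. Hspb2 had the lowest mean, -0.82 ± 1.16, from -1.63 with LPS in Cy3 and a ratio of exactly 1 at both spots of the other array. Hspb8 lay at -0.18 and 0.16. Hspb11, outside the group, had a mean of 1.33 ± 1.22 from 0.46 and 2.19, with spots at 3.95 and 0.43 on the second array. Hspbp1 had means of 0.38 at 4 h and -0.16 at 24 h, with opposite signs on the arrays of each time.

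Of the 32 DNAJ genes, 2 were higher and 2 lower at 4 h, close to the shares of all genes. Their median was -0.05, and -1.98 with centring on abundant transcripts. Dnaja1 is the main cytosolic partner of Hspa8, and it lay at 2.80 and 2.14 (mean 2.47 ± 0.47, 5.53-fold). Dnajc19, a subunit of the motor that pulls proteins into mitochondria, lay at 2.35 and 1.48 (mean 1.91 ± 0.62); on the array with LPS in Cy5 its spots were at 4.70 and exactly 0. It was the 1 of the 12 higher genes without every spot above 0. Dnajc8, a nuclear protein tied to splicing, was lower at -1.44 and -2.12 (mean -1.78 ± 0.49). Dnajb12, which sits in the ER membrane, was lower at -0.74 and -1.51 (mean -1.13 ± 0.54).

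By class, the 4 h medians were 0.28 for 4 DNAJA genes, 0.14 for 11 DNAJB genes and -0.17 for 17 DNAJC genes. The other DNAJA genes did not follow Dnaja1: Dnaja2 lay at 1.45 and -0.05, and Dnaja4 at -0.12 and -0.18. Dnaja3 lay at -0.89 with LPS in Cy3, and both its spots on the other array had a ratio of exactly 1. Dnajb2, which acts with the ubiquitin system, had the highest DNAJB mean, 0.95 ± 0.71, from 0.45 and 1.45. Of the 4 lowest DNAJC means, only that of Dnajc8 came from both arrays. Dnajc15, a mitochondrial import factor, had -4.48 and 0.07, and Dnajc5, the synaptic vesicle protein CSP alpha, had 0.15 and -2.73. Dnajc28 had -4.05 with LPS in Cy3 and both spots at a ratio of exactly 1 on the other array, so it may not have been measured there. None of these 3 was called.

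At 24 h no DNAJ gene was called, and the median of the 32 was 0.09. Among DNAJA genes Dnaja3, a mitochondrial protein, was highest (0.56 and 0.38) and Dnaja4 lowest (0.10 and -0.02), while Dnaja1 gave opposite signs, 1.17 and -0.89. The highest DNAJB mean was that of Dnajb3, 0.89 ± 1.57, from -0.22 and 2.0, and the lowest that of Dnajb1. In DNAJC the means ran from -1.87 ± 2.74 for Dnajc3 to 0.74 ± 0.28 for Dnajc10. The low Dnajc3 value came from 1 array at -3.81, with the other at 0.07. Dnajc15 had -2.04 and -0.48 (mean -1.26 ± 1.10), the only DNAJC gene past 2-fold by its mean with both arrays below 0. On the first array its adjacent spots of the same oligonucleotide lay at -4.43 and 0.36, of opposite sign.

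**Figure D3:**
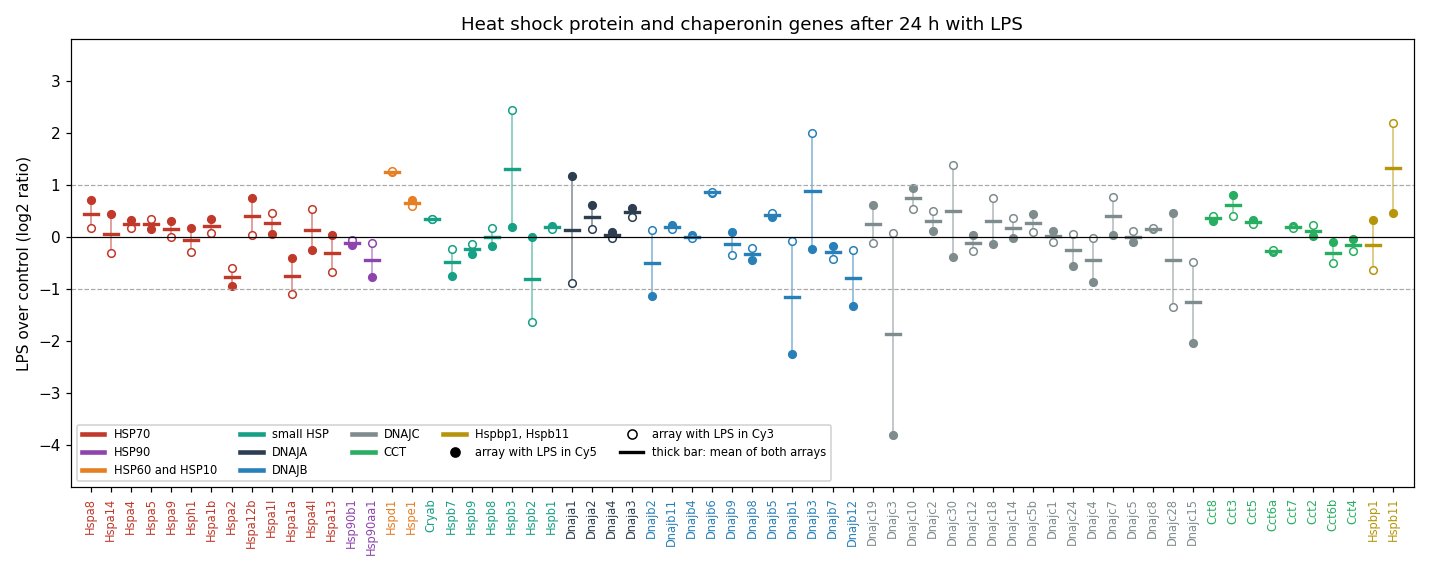
The same plot for 24 h, with the genes in the order of the 4 h plot (log2 ratio, vertical axis; filled circles LPS in Cy5, open circles LPS in Cy3, bars the mean). Most genes lie within 0.5 of 0 (50 of 66), Hspd1 is at 1.25 with its arrays on top of each other, and the long lines of Dnajc3, Hspb3, Dnajb3 and Dnajb1 mark arrays that disagree.

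Chaperones of the ER were also read as a set of 10 genes, drawn up after values had been seen. At 4 h 0 of them were higher and 2, Hspa13 and Dnajb12, were lower, with a median of 0.17. Both lower calls were lost when arrays were scaled to one spread (-0.93 for Hspa13 and -0.99 for Dnajb12), under quantile normalization (-0.92 and -0.96) and without the array with LPS in Cy3 (-0.83 and -0.74), and at the 3-fold limit. At 24 h 0 were called and the median was -0.05. Hspa5 (BiP), the HSP70 of the ER and a standard marker of the unfolded protein response, lay at 0.55 and 0.65 at 4 h and at 0.15 and 0.35 at 24 h. Its array means were close at both times, at 0.60 ± 0.07 (1.52-fold) and 0.25 ± 0.14, but its spots lay further apart. At 4 h the spots were at 0.73 and 0.37 with LPS in Cy5 and at 0.32 and 0.99 with LPS in Cy3. At 24 h they were at -0.14 and 0.44 with LPS in Cy5, of opposite sign, and at 0.46 and 0.24 with LPS in Cy3. Dnajb9 (ERdj4), another target of that response, was near 0 at 0.24 and 0.14, then 0.09 and -0.35. Dnajb11, a partner of Hspa5, lay at 0.21 and 1.44, then 0.24 and 0.16. With centring on abundant transcripts Hspa5 lay below 0 at 4 h.

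The ER stress element, CCAAT and CCACG with 9 bases between them, searched on both strands in the same 250 bases, was found before 3 members: Hspa5, Hsp90b1 and Dnajc3 (p58IPK, which restrains the kinase PERK). It stood before 0.13% of all genes searched, and in 0.113% of their promoters. The stretches are shown because these genes carry the letters of that response and none of them was called. Capitals mark the element; Hsp90b1 has 2, on opposite strands. Positions are chr2:34772005-34772063 (plus strand) for Hspa5, chr14:118937807-118937865 (plus strand) for Dnajc3 and chr10:86705513-86705676 (minus strand) for Hsp90b1.
Hspa5: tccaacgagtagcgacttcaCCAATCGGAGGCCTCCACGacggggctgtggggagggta
Dnajc3: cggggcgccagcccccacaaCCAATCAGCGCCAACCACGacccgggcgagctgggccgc
Hsp90b1: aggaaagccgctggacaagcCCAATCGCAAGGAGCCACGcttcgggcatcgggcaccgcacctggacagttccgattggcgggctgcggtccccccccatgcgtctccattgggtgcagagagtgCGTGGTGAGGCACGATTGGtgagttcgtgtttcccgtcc

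At 4 h Hspa5 and Dnajc3 (0.65 and 0.81) lay between 0.55 and 0.81 on every array, and Hsp90b1 gave opposite signs. Dnajc3's 4 h spots lay at 2.15 and -0.85 on 1 array and at -0.53 and 2.14 on the other, so its array means hide spots of opposite sign. Of 20 measured genes of the unfolded protein response and ER folding, 2 were higher and 0 lower at 4 h, with a median of 0.15. These were P4hb, protein disulfide isomerase, at 5.19 and 3.42, and the lectin chaperone gene Canx at 1.39 and 0.71. At 24 h 0 were higher and 1, the stress sensor gene Ern1, was lower at -0.79 and -1.89, with a median of 0.16. Canx lay at 0.54 and 1.48 then, below 1.5-fold on 1 array.

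Co-chaperones, heat shock factors and other chaperones gave 5 of 36 higher and 2 lower at 4 h and 0 either way at 24 h, with medians of 0.27 and 0.07. Stub1, the ubiquitin ligase CHIP that binds HSP70 and HSP90, lay at 2.38 and 1.06. Hsbp1, which binds heat shock factor, had a mean of 1.09 ± 0.14. Bag5 (1.01 and 4.20), Hyou1, the large ER HSP70 relative (0.64 and 3.96), and Cdc37l1 (6.49 and 0.96) were higher with arrays far apart. Pfdn1, a subunit of prefoldin, which hands actin and tubulin to CCT, was lower at -2.95 and -3.79. Grpel1, the nucleotide exchange factor of Hspa9, was lower at -1.40 and -0.78.

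**Figure D4:**
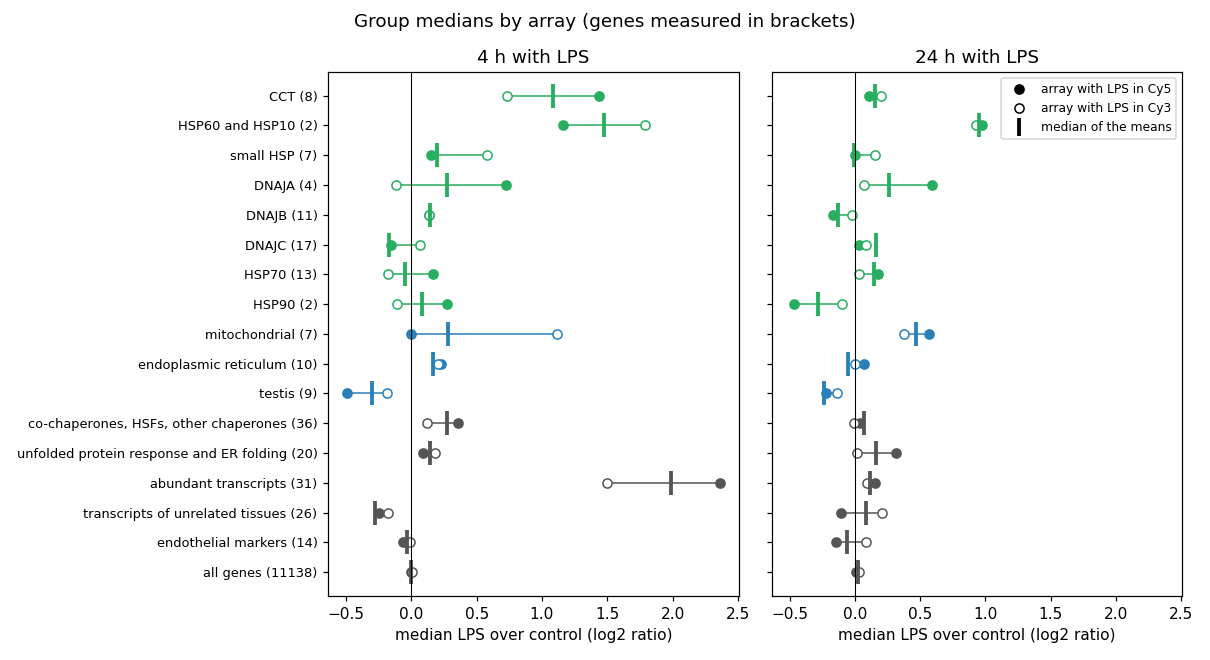
Median LPS over control (log2 ratio, horizontal axis) at 4 h and 24 h for the chaperone families (green), sets by compartment or tissue drawn up after values were seen (blue), and other lists (grey); filled circles are medians with LPS in Cy5, open circles with LPS in Cy3, ticks the median of gene means, brackets the genes measured. At 4 h CCT (1.08) and the mitochondrial chaperonin (1.48) lie between the other families and the abundant transcripts (1.99); on the scale centred on those, CCT is at -0.85 and the chaperonin at -0.46.

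Sets by place gave a further view of the same genes. For the 7 mitochondrial members the median was 0.28 at 4 h and 0.47 at 24 h, with 2 and 1 higher (Hspd1 at both times and Dnajc19 at 4 h) and 0 lower. By array the mitochondrial 4 h median was 0.00 with LPS in Cy5 and 1.11 with LPS in Cy3. On the first array both spots of Dnaja3 and of Hspe1 had a ratio of exactly 1, which may mean not measured. The 9 members known from testis had medians of -0.30 and -0.23, with 0 called at either time. Of these 9, 1 was above 0 on both arrays at 4 h and 5 were below; of all genes, 31.2% were above 0 on both and 34.4% below. Markers of other cell types were read beside these. Of 12 leukocyte markers 0 and 1 were higher at 4 h and 24 h (medians -0.20 and 0.03), and of 8 epithelial markers 0 and 0 (-0.20 and -0.01). Of 13 mural and fibroblast markers 6 and 1 were higher (0.04 and 0.26). The 6 are 46.2% of that list, beside 8.74% of all genes at 4 h. Lower at 4 h were 1 epithelial marker and 1 mural and fibroblast marker. The part of these other cell types in the chaperone values was not tested. The endothelial medians were -0.04 and -0.06.

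Between the times, 14 of 66 members were lower at 24 h than at 4 h and 1, Dnajc8, was higher, by a difference of means of at least 1 with both arrays of a time beyond both of the other. Of all genes, 9.99% were lower and 8.23% higher. The 14 held 11 of the 12 genes higher at 4 h, all but Cct7, and Dnajb2, Dnajc3 and Hspb9. The differences were -2.60 for Dnajc3, -2.33 for Dnaja1, -2.18 for Cct8, -2.09 for Hspa8, -1.97 for Hspa14, -1.71 for Hspb7, -1.67 for Dnajc19 and -1.56 for Cryab. They were -1.45 for Dnajb2, -1.43 for Cct3, -1.42 for Cct6a, -1.36 for Cct5, -1.04 for Hspd1 and -1.02 for Hspb9, and 1.94 for Dnajc8. The 4 h values entered both rules, so these differences are given as a description. On the scale centred on abundant transcripts, 0 members were lower at 24 h and 48 higher, beside 109 and 8894 of the 11138 genes. Dnajc3 owes its place to the 24 h array at -3.81. Dnajb2 lay at -1.14 and 0.14 at 24 h, and without the array with LPS in Cy5 of that time it was not lower. Spots of Dnajb2 differed in sign with LPS in Cy5 at 4 h (1.28 and -0.39) and with LPS in Cy3 at 24 h (0.90 and -0.63). Hspb9 had a ratio of exactly 1 at both spots of the 4 h array with LPS in Cy5. With exact zeros as not measured it dropped out, and 13 of 59 members were lower, beside 1047 of 10087 genes. Scaling to one spread gave 12 lower members, without Hspb9 and Hspd1, beside 1029 of the 11138 genes. Quantile normalization gave 8, and Cct3, Cct5, Cryab, Dnaja1, Hspb9 and Hspd1 were then not lower. Hspd1 had a mean of 1.82 at both times under that setting. Values were spread more widely at 4 h, where the SD over genes was 1.16 with LPS in Cy5 and 1.04 with LPS in Cy3. At 24 h this SD was 0.72 with LPS in Cy5 and 0.70 with LPS in Cy3. The part of this spread in the differences was not tested.

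**Figure D5:**
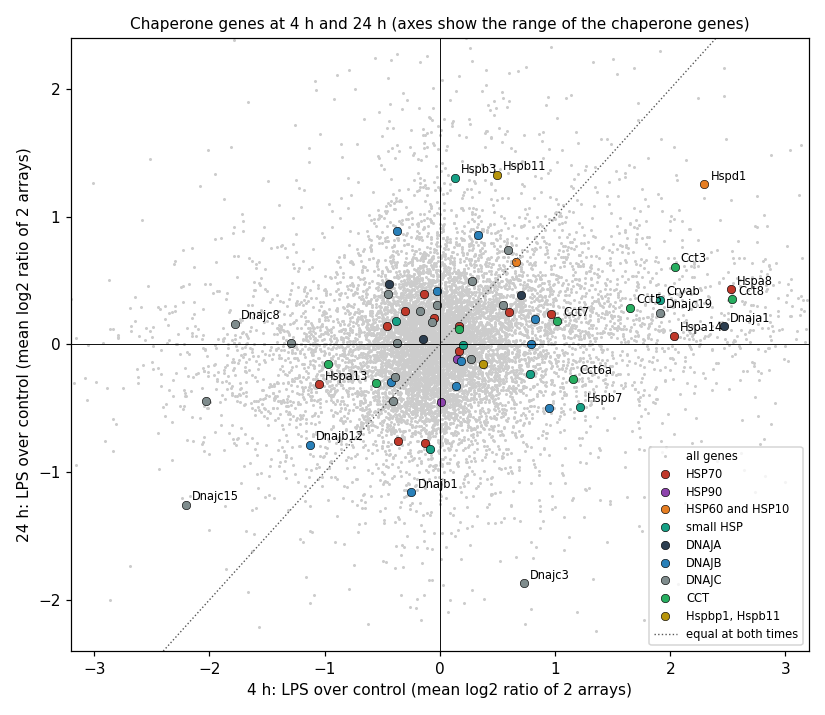
Mean log2 ratio at 4 h (horizontal) and at 24 h (vertical) for the 66 genes (coloured by family) over all genes (grey; the axes cover the chaperone genes, and some grey points lie beyond them); the dotted line marks equal values. Hspd1, at 2.30 and 1.25, is the highest at 24 h of the 6 genes right of 2 at 4 h; Hspa8, Dnaja1, Cct8, Hspa14 and Cct3 lie between 0.06 and 0.61 at 24 h. With centring on abundant transcripts the points move left by 1.93 and down by 0.12.

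A response shared by both times was fitted with limma on the 2 pair means over all genes. After Benjamini-Hochberg adjustment, 0 members and 0 of 11138 genes passed 0.05, the lowest adjusted p among members being 0.761. At an unadjusted p under 0.05 there were 3 members (4.55%), Hspd1, Dnajb12 and Dnajc15, beside 4.61% of all genes. With the 4 arrays taken as independent samples limma gave 0 members again and 10 at an unadjusted p under 0.05, beside 1245 of the 11138 genes. The smallest adjusted p over the alternatives lay between 0.438 and 0.774.

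The arrays of a time agreed better at 4 h than at 24 h. Across the 66 members, whose values on an array share hybridisation and labelling, the arrays correlated at r = 0.53 at 4 h and 0.165 at 24 h, where all genes gave 0.48 and 0.10. Neighbouring spots that carry one oligonucleotide formed 74 pairs among the members, with r = 0.66 and 0.79 for the 4 h arrays and 0.39 and 0.32 for the 24 h arrays. Exact ratios of 1 took 20 of 148 member spots on the 4 h array with LPS in Cy5 and 0 to 3 on the others. That is 13.5% on the former, beside 16.4% of all spots. On the others it is 0 to 2.03%, beside 6.29% to 10.8% of all spots. At 24 h, 75.8% of members lay within 0.5 of 0 by their mean, as did 74.8% of all genes.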

How the data were processed

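The values were log2 ratios of both dyes as deposited by the authors; the scanner, background correction and normalization behind them are not stated in the labels. Each column had a median of 0, and 2 raised to the size of a value was a multiple of 0.01 (within 0.02 of a step) in at least 99.96% of spots. Direction is not stated and was taken as Cy5 over Cy3. The number of arrays limits the precision, and no intensities were used.

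Spots were named from the platform annotation: 24344 had 1 symbol, 98 several and 8006 none. All 66 members matched RefSeq gene identifiers with current symbols; 60 rest on 1 oligonucleotide and 6 on more, with 2 to 6 spots each. Arrays were centred on their median, reversed arrays turned in sign, spots of a gene averaged, then the 2 arrays of a time. Calls needed a mean of 2-fold and 1.5-fold on each array. Shared responses used limma 3.58.1 (R 4.3.3) with an intercept alone, leaving 1 residual degree of freedom, and p-values adjusted by Benjamini-Hochberg; rules and fit were tested on simulated data. The rest used Python 3.11.15 with pandas 2.3.3.

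Members and lists (co-chaperones, unfolded protein response, abundant, unrelated tissue, endothelial, leukocyte, mural, epithelial) were chosen with earlier results of these data known. Named genes are those called at either time or between times, each family's highest and lowest, a fixed set of main chaperones, all CCT subunits, and called list members. Genes shown for single-array values, promoter motifs, tissue or neighbourhood, and Tcp1, were added after values were seen. Promoters came from RefSeq (GRCm38.p6). Alternatives were other scalings, centrings, spot summaries, fold limits and each array left out.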

Additional observations from a re-analysis of the deposited data

Results flagged for a closer look

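For 8 of the 66 genes (12.1%, beside 13.8% of all genes) both arrays of 4 h lay on one side of 0 and both of 24 h on the other; the difference was not tested, as each time is 1 RNA pair. From 4 h to 24 h the mean moved by -1.71 for Hspb7 (1.22 to -0.49) and by -1.42 for Cct6a (1.15 to -0.27). For Dnajc8 the difference was 1.94 (-1.78 to 0.16). Smaller differences were 0.85 for Dnajc7 (-0.45 to 0.40), 0.56 for Hspb1 (-0.38 to 0.18), 0.54 for Hspa12b (-0.14 to 0.39), 0.44 for Dnajc5b (-0.17 to 0.26) and -0.47 for Dnajb8 (0.14 to -0.33). For Dnajc7 the oligonucleotides differed at both times, at 0.09 and -0.99 at 4 h and at 0.01 and 0.78 at 24 h.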

How the results depend on the processing

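Centring on abundant transcripts gave the largest changes. It left 0 members higher and 47 lower at 4 h, and 48 higher and 0 lower at 24 h than at 4 h. The 4 h medians became -1.98 (HSP70), -1.85 (HSP90), -0.46 (Hspd1 and Hspe1), -1.74 (small heat shock proteins), -1.98 (DNAJ) and -0.85 (CCT), and the 24 h medians 0.025 (HSP70), 0.83 (Hspd1 and Hspe1), -0.13 (small heat shock proteins), -0.030 (DNAJ) and 0.031 (CCT). Called genes that turned in sign at 4 h were Cct5 (-0.28), Cct6a (-0.78), Cct7 (-0.92), Cryab (-0.02), Dnajc19 (-0.020) and Hspb7 (-0.71). Quantile normalization gave 1 lower at 4 h, beside 537 of all genes. At 24 h it gave 4 higher (Dnajb6, Dnajc10, Hspb11 and Hspd1) and 1 lower, beside 411 and 148 of all genes. Lower at 24 h than at 4 h were 8, beside 878 of all genes, and the 24 h median of Hspd1 and Hspe1 was 1.37. Scaling to one spread gave 1 lower at 4 h, beside 534 of all genes, and 1.06 for that median. In both, and at the 3-fold limit, Dnajc8 was the 1 lower gene, so Hspa13 and Dnajb12 were lost. Among the higher genes at 4 h, scaling lost Cct7, and quantile normalization lost Cct6a, Cct7 and Hspb7. With exact zeros as not measured, Hspe1 dropped out at 4 h, and Hspd1 alone lay at 2.28. Hspb2 dropped out at 24 h in the same way, and the 24 h median of the other small heat shock proteins was 0.10. The largest oligonucleotide gave 2 members higher at 24 h than at 4 h, beside 970 of all genes.

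The looser fold limit gave 6 higher and 3 lower at 24 h (all genes 751 and 521). The stricter one gave 1 lower at 4 h and 0 higher at 24 h (all genes 306 and 73). The mean alone gave 6 lower at 4 h, and 3 higher and 3 lower at 24 h (all genes 901, 388 and 280). Leaving out an array gave 14 to 15 higher and 3 to 6 lower at 4 h, and 2 to 5 higher and 3 to 5 lower at 24 h, while all genes gave 1376 to 1476, 996 to 1007, 502 to 771 and 310 to 818 (5 higher without the array with LPS in Cy5, 5 lower without the other). It gave 4 to 7 higher and 13 to 17 lower at 24 h than at 4 h (all genes 923 to 1576 and 1405 to 1582). The 4 h medians then ran from 0.15 to 0.58 (small heat shock proteins) and from 0.00 to 0.058 (DNAJ). The 24 h medians ran from 0.034 to 0.18 (HSP70), 0.00 to 0.15 (small heat shock proteins) and 0.037 to 0.078 (DNAJ). The cause of these changes was not tested. Requiring every spot on one side of 0 was added after seeing the data.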
